A study of Homo sapiens with 12 samples.

Results

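The proteasome genes were examined in THP-1 cells, an established human monocytic leukaemia line, as every protein-coding gene whose current symbol begins with PSMA, PSMB, PSMC, PSMD, PSME, PSMF or PSMG followed by a number. This gave 50 of the 57500 genes in the count tables, after 44 pseudogenes and 7 long non-coding RNA genes with such symbols were left aside. Of the 50, 48 encode subunits, activators, an inhibitor or assembly chaperones of the particle, and 2 (PSMC3IP and PSME3IP1) are only named after one. The low-count filter kept 48 members and dropped PSMA8, a testis alpha subunit, and PSMB11, the thymus catalytic subunit, both at or near 0 counts.

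The cells of every group carried a lentiviral non-target shRNA and were kept in buffered medium for 4 h in a gas chamber. The 4 groups were 10% CO2 with LPS, 5% CO2 with LPS, 10% CO2 (buffered hypercapnia) and 5% CO2 (normocapnia), with 3 libraries each. LPS, a component of the bacterial cell wall that activates TLR4, was present at 2.5 µg/ml for the last 2 h. Transcripts were measured by RNA sequencing of poly(A) RNA as raw counts per gene, and levels are given as CPM, counts scaled to the size of the library, after TMM scaling.

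The 26S proteasome is the main machine that degrades ubiquitin-tagged proteins. A 20S barrel of alpha and beta rings holds the protease sites, and a 19S cap of ATPases and non-ATPase subunits binds, unfolds and de-ubiquitinates the substrate. In cells exposed to interferon, the catalytic subunits PSMB8, PSMB9 and PSMB10 replace PSMB5, PSMB6 and PSMB7, and the activator of PSME1 and PSME2 caps the barrel. This immunoproteasome cuts peptides that suit presentation on MHC class I. In monocytes LPS is known to act through NF-κB and, later, through secreted interferon.

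Library totals were 17.1 to 22.2 M counts, and the members held 0.478 to 0.519% of them. All 14 markers of the monocytic line had a mean of at least 1 CPM. The summed markers of erythroid cells stayed at or below 0.179 CPM, those of epithelial cells at or below 1.30 CPM and those of fibroblasts at or below 4.01 CPM. Of the lists for T and NK cells, B cells and endothelial cells, NKG7 (mean 13.1 CPM), PAX5 (13.9 CPM) and PECAM1 (298 CPM, also expressed by monocytes) made up most, and their summed levels stayed at or below 20.4 CPM for B cells and 411 CPM for endothelial cells. The summed monocytic markers were 1762 to 2043 CPM at 10% CO2 with LPS and 1955 to 2318 CPM at 5% CO2 with LPS, against 2163 to 2307 CPM at 10% CO2 and 2116 to 2642 CPM at 5% CO2. Mitochondrial genes held 2.28 to 4.15% of counts at 10% CO2 with LPS, 1.28 to 1.78% at 5% CO2 with LPS, 2.01 to 3.05% at 10% CO2 and 1.31 to 1.96% at 5% CO2. The part of either measure in the results was not tested.

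Promoter windows are shown for the 4 immunoproteasome genes that hold the core of the interferon-stimulated response element, and for PSMC4, a 19S ATPase. PSMC4 was added after its values were seen, as a member that rose with LPS. The windows run from 250 bases before to 50 bases after the start site in RefSeq (GRCh38.p14), 5′ to 3′ on the strand of the gene. PSMB8 lies at chr6:32843998-32844297 on the minus strand (the second of its start sites), PSMB10 at chr16:67936801-67937100 on the minus strand, PSME1 at chr14:24135944-24136243 on the plus strand, PSME2 at chr14:24146561-24146860 on the minus strand and PSMC4 at chr19:39970915-39971214 on the plus strand. Capitals mark GAAANNGAA, the interferon response core, and TGACNNNGC, an antioxidant response element type of motif, on either strand.
PSMB8: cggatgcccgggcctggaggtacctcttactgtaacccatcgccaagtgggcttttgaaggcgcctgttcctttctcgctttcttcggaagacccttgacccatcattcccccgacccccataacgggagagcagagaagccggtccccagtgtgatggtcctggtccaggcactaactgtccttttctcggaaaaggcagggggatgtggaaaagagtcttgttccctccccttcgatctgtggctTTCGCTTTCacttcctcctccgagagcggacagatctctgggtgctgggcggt
PSMB10: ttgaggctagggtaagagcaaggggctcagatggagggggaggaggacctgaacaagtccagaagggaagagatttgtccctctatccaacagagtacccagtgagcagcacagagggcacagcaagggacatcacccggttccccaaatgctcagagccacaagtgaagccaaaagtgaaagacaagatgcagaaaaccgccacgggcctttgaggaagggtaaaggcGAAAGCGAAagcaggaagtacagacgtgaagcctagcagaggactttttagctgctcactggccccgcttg
PSME1: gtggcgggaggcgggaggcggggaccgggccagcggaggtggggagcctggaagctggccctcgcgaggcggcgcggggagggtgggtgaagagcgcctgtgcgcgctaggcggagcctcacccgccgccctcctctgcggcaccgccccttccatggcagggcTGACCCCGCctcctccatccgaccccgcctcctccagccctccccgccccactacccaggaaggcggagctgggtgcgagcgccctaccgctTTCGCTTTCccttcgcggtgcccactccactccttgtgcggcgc
PSME2: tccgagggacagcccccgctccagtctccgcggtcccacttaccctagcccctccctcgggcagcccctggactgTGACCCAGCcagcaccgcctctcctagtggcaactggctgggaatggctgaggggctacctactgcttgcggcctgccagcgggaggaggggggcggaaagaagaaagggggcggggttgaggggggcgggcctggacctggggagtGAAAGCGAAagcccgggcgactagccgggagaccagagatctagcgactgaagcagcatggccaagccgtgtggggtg
PSMC4: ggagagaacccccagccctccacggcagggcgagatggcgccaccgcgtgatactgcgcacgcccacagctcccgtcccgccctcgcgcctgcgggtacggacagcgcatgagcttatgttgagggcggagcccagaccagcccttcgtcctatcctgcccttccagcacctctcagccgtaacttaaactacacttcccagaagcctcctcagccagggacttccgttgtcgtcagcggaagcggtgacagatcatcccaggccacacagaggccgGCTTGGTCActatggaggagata

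The GAAANNGAA core, whose first base lay at -3 in PSMB8, -21 in PSMB10, 7 in PSME1 and -28 in PSME2 relative to the start site, was found in 4 of the 5 immunoproteasome genes. It occurred in 4 of the other 39 members with a RefSeq window and in 9.86% of 27305 genes. Windows were matched for 44 of the 50 members, and PSMA7, PSMB1, PSMB6, PSMB7, PSMD4 and PSMG3 had no entry. TGACNNNGC was present in 15 of the 44 members and in 16.1% of all genes, among them PSMB9 (first base at -148), PSME1 (-86), PSME2 (-175) and PSMC4 (28). Neither motif lay in the windows of PSMB5, the constitutive counterpart of PSMB8. A κB decamer was found in 2 of the 44 (PSMA4 and PSMA8) and in 13.3% of all genes, and the heat shock unit GAANNTTC in 1 (PSMC3IP) and in 8.21%. Of the 14 members with a window that rose with LPS at both CO2 levels, 2 held TGACNNNGC (PSMB3 and PSMC4). GAAANNGAA lay in 1 of these 14 (PSMB4), and the κB decamer and GAANNTTC in 0. The motifs may overlap one another, and a match describes the letters of the window, not a bound site.

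Most members were well expressed. Tested members had mean levels of 5.71 to 257 CPM over the 12 libraries, with a median of 97.0 CPM, and 47 had a mean of at least 10 CPM. Levels per kilobase were taken over all annotated exon bases of a gene, not over 1 transcript, so they rank genes only roughly. PSMA6, with 6506 such bases, had 10.9 CPM per kilobase and 71.1 CPM, and PSMA7, with 1750, had 127 and 223. Per kilobase of exon, the 20S alpha ring ran from 0.00223 CPM for PSMA8 to 127 CPM for PSMA7, and the structural beta subunits from 24.2 CPM for PSMB2 to 116 CPM for PSMB4. The 19S ATPases ran from 11.0 CPM per kilobase for PSMC6 to 89.3 for PSMC3 and the non-ATPase subunits from 10.5 for PSMD6 to 73.3 for PSMD4. The assembly chaperones ran from 0.548 CPM per kilobase for PSMG4 to 16.7 for PSMG2 on the 20S side (median 12.9) and from 2.11 for PSMD9 to 16.5 for PSMD10 on the 19S side (median 3.39). These medians lay below those of the ATPases (26.4) and the non-ATPase subunits (24.8), while the ranges overlapped. Among the immunoproteasome genes, PSMB9 had 7.60 CPM per kilobase and PSME1 58.0.

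The first question was how 2 h of LPS changes proteasome transcripts at each CO2 level. LPS was followed by a modest rise over much of the constitutive particle. At 5% CO2, 20 of the 48 tested members rose and PSMD5 fell, and at 10% CO2 20 rose and 2 fell (PSMD5 and PSMG4), by edgeR's quasi-likelihood test with an adjusted p under 0.05. Over all 16402 genes tested, LPS raised 11.8% and lowered 13.1% at 5% CO2 and raised 16.6% and lowered 18.6% at 10% CO2. Among those averaging 10 CPM or more, 14.4% rose at 5% CO2 and 21.1% at 10% CO2. Of the members tested 41.7% rose at each CO2 level, and their median log2 change was 0.20 at each, beside -0.01 at 5% CO2 and -0.02 at 10% CO2 for all genes. The rises were small, the largest log2 changes being 0.48 at 5% CO2 and 0.49 at 10% CO2.

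The summed level of the 50 members was 5404, 5566 and 5337 CPM at 10% CO2 with LPS, against 4509.9, 4797 and 4659 CPM at 10% CO2. It was 5138, 5017 and 5509.9 CPM at 5% CO2 with LPS, against 4573, 4560.1 and 4380.1 CPM at 5% CO2. Every library with LPS lay above every library without it. CPM is relative to the rest of the library, so such a level cannot separate a rise of these transcripts from a fall of others. In bulk RNA it also cannot separate more cells that express them from more of them per cell. The p-values given here measure only the spread between these libraries, which no label says came from separate cultures.

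At both CO2 levels 16 members rose, which is 80.0% of those that rose at 10% CO2 and 80.0% of those that rose at 5% CO2. These were PSMA1, PSMA2, PSMA3, PSMA6, PSMB1, PSMB2, PSMB3, PSMB4, PSMC1, PSMC3, PSMC4, PSMD2, PSMD4, PSMD7, PSMD11 and PSME3. Over all genes 1744 rose at both levels, 89.9% of those at 5% CO2 and 64.0% of those at 10% CO2. A further 4 members passed the threshold at 5% CO2 alone (PSMA5, PSMC5, PSMD8 and PSMD13) and 4 at 10% CO2 alone (PSMC6, PSMD6, PSMD14 and PSME4), but no member passed the test of a difference between the CO2 levels. At 5% CO2, the total of 21 called members was 8 without replicate 3 of 5% CO2 with LPS, 12 without 5% CO2 replicate 1, 12 without its replicate 2 and 13 without its replicate 3. At both CO2 levels, 7 members were called in each of the 12 fits that left out 1 library: PSMA1, PSMB1, PSMB4, PSMC1, PSMC4, PSMD4 and PSME3.

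**Figure D1:**
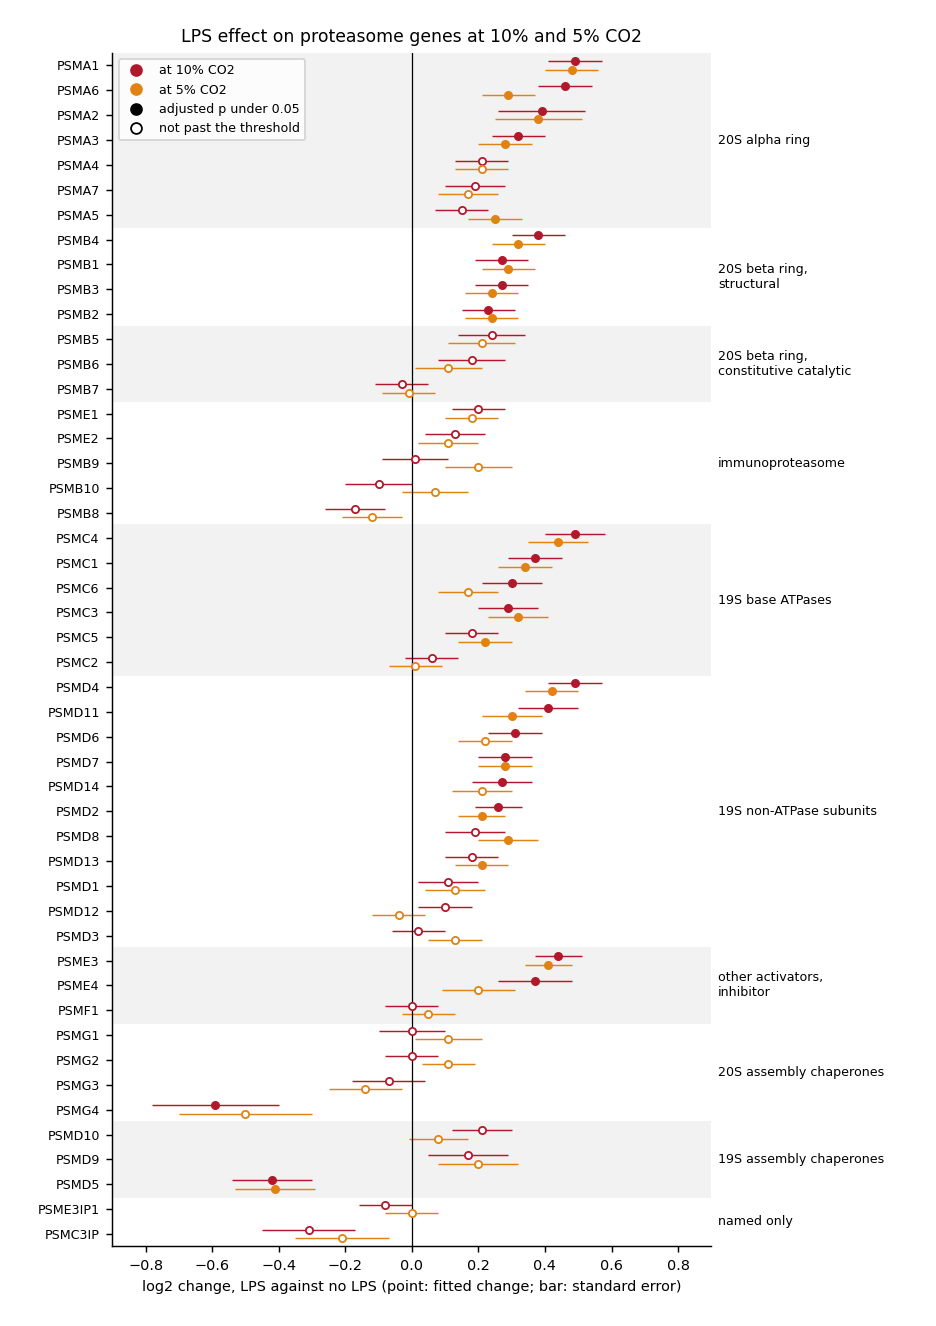
Fitted log2 change with LPS against no LPS (horizontal axis, bars are standard errors) for the 48 tested members, grouped by role, at 10% CO2 and at 5% CO2. Filled points have an adjusted p under 0.05: all 4 structural beta subunits are filled at both CO2 levels, and none of the 3 constitutive catalytic or 5 immunoproteasome genes is.

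The alpha ring, which gates entry to the barrel, rose in 5 of its 7 tested subunits at 5% CO2 and in 4 at 10% CO2. PSMA1 had 92.4, 104 and 95.6 CPM at 10% CO2 with LPS, against 70.7, 72.1 and 65.2 CPM at 10% CO2, and 93.6, 89.0 and 93.0 CPM at 5% CO2 with LPS, against 67.3, 68.9 and 61.1 CPM at 5% CO2. Its libraries with LPS all lay above those without. The log2 change was 0.49 ± 0.08 (SE) at 10% CO2 (edgeR adjusted p = 0.000136) and 0.48 ± 0.08 at 5% CO2 (adjusted p = 0.000227). PSMA6 had 89.0, 92.7 and 83.8 CPM at 10% CO2 with LPS, against 66.7, 66.9 and 59.2 CPM at 10% CO2, and 73.5, 71.2 and 72.6 CPM at 5% CO2 with LPS, against 57.5, 59.5 and 60.2 CPM at 5% CO2. These libraries did not overlap either, and the change was 0.46 ± 0.08 at 10% CO2 (adjusted p = 0.000201) and 0.29 ± 0.08 at 5% CO2 (adjusted p = 0.0123), or 0.27 without 5% CO2 replicate 1 (adjusted p = 0.0540). Of the exon bases of PSMA1, 24.7% are shared with another gene on its strand, and of those of PSMA6, 14.1%, so some of their reads could belong to those genes. PSMA4 had a log2 change of 0.21 at both CO2 levels and PSMA7 changes of 0.19 at 10% CO2 and 0.17 at 5% CO2, and neither passed the threshold.

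All 4 beta subunits without protease activity rose at both CO2 levels, with log2 changes of 0.24 to 0.32 at 5% CO2 and 0.23 to 0.38 at 10% CO2. PSMB4, the most abundant of them, had 277, 307 and 276 CPM at 10% CO2 with LPS, against 208, 228 and 226 CPM at 10% CO2, and 269.8, 261 and 288 CPM at 5% CO2 with LPS, against 227, 225 and 205 CPM at 5% CO2. The libraries with LPS were all higher. The change was 0.38 ± 0.08 at 10% CO2 (adjusted p = 0.000788, edgeR) and 0.32 ± 0.08 at 5% CO2 (adjusted p = 0.00472). PSMB1 had 195, 205 and 198 CPM at 10% CO2 with LPS, against 158, 174 and 163 CPM at 10% CO2, and 191, 185 and 199 CPM at 5% CO2 with LPS, against 165, 158 and 147 CPM at 5% CO2. Its groups did not overlap, with changes of 0.27 ± 0.08 at 10% CO2 (adjusted p = 0.00868) and 0.29 ± 0.08 at 5% CO2 (adjusted p = 0.00806). With a correction for GC content, PSMB1 did not pass at 10% CO2 (adjusted p = 0.130), nor did PSMB2 at 10% CO2 (0.148) or 5% CO2 (0.0633). With no low-count filter, which tests more genes, the calls of PSMB2 (0.192 at 10% CO2, 0.104 at 5% CO2) and PSMB3 (0.104 at 10% CO2, 0.101 at 5% CO2) were lost, and that of PSMB1 at 10% CO2 (0.0728). PSMB2 and PSMB3 passed in all libraries, but without replicate 3 of 5% CO2 with LPS the adjusted p at 5% CO2 was 0.135 for PSMB2 and 0.163 for PSMB3, and without replicate 2 of 10% CO2 with LPS that at 10% CO2 was 0.0681 for PSMB2 and 0.0758 for PSMB3.

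The 3 constitutive catalytic subunits did not pass the threshold at either CO2 level in the fit of all 12 libraries with TMM scaling. PSMB5, the chymotrypsin-like subunit, had 95.4, 103 and 96.3 CPM at 10% CO2 with LPS, against 71.2, 90.5 and 88.6 CPM at 10% CO2, and 82.6, 77.3 and 94.8 CPM at 5% CO2 with LPS, against 72.8, 75.9 and 72.3 CPM at 5% CO2. At each CO2 level the libraries with LPS lay above those without, yet the change of 0.24 ± 0.10 at 10% CO2 had an edgeR adjusted p of 0.0699 and that of 0.21 ± 0.10 at 5% CO2 one of 0.146. At 10% CO2 PSMB5 passed with the replicate number as a block (adjusted p = 0.0457), with RLE size factors (0.0483) and with the GC correction (0.0271). PSMB6, the caspase-like subunit, had 35.8, 34.6 and 34.5 CPM at 10% CO2 with LPS, against 28.6, 33.1 and 31.2 CPM at 10% CO2, and 31.3, 29.7 and 35.4 CPM at 5% CO2 with LPS, against 28.4, 31.5 and 29.8 CPM at 5% CO2. Its groups overlapped at 5% CO2 and not at 10% CO2, with changes of 0.18 (95% interval -0.03 to 0.38) at 10% CO2 and 0.11 (-0.10 to 0.31) at 5% CO2. At 10% CO2 PSMB6 passed with the replicate block and the GC correction together (adjusted p = 0.0330). PSMB7, the trypsin-like subunit, had 115, 106 and 113 CPM at 10% CO2 with LPS, against 118, 111 and 113 CPM at 10% CO2, and 115, 112 and 117 CPM at 5% CO2 with LPS, against 121, 117 and 108 CPM at 5% CO2. The groups of PSMB7 overlapped at both levels, and its intervals of -0.19 to 0.13 at 10% CO2 and -0.17 to 0.15 at 5% CO2 ended below the change of PSMA1.

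In the 19S cap, 4 of the 6 ATPases and 6 of the 11 non-ATPase subunits rose at each CO2 level. PSMC4, an ATPase of the base, had 104, 104 and 91.4 CPM at 10% CO2 with LPS, against 65.0, 73.3 and 74.4 CPM at 10% CO2, and 94.6, 81.5 and 94.7 CPM at 5% CO2 with LPS, against 69.5, 66.6 and 64.0 CPM at 5% CO2. All libraries with LPS were above those without, and the change was 0.49 ± 0.09 at 10% CO2 (adjusted p = 0.000295, edgeR) and 0.44 ± 0.09 at 5% CO2 (adjusted p = 0.00133). PSMC1 had 124, 122 and 122 CPM at 10% CO2 with LPS, against 102, 94.2 and 87.2 CPM at 10% CO2, and 132, 119 and 131 CPM at 5% CO2 with LPS, against 104, 104 and 94.9 CPM at 5% CO2. It too was separated, with changes of 0.37 ± 0.08 at 10% CO2 (adjusted p = 0.00150) and 0.34 ± 0.08 at 5% CO2 (adjusted p = 0.00410). The opposite-strand gene NRDE2 covers 75.8% of the exon bases of PSMC1, and with no strand setting given, its reads cannot be told from those of NRDE2. PSMC3, the most abundant ATPase transcript per kilobase, had 206, 238 and 229 CPM at 10% CO2 with LPS, against 167, 189 and 195 CPM at 10% CO2, and 214, 213 and 247 CPM at 5% CO2 with LPS, against 177, 188 and 176 CPM at 5% CO2. PSMC3 rose by 0.29 ± 0.09 at 10% CO2 (adjusted p = 0.0146) and by 0.32 ± 0.09 at 5% CO2 (adjusted p = 0.0105), where it did not pass without replicate 3 of 5% CO2 with LPS (adjusted p = 0.0777). At 10% CO2 PSMC3 did not pass without 10% CO2 replicate 1 (0.0588) or without replicate 2 (0.0665) or 3 (0.0521) of 10% CO2 with LPS. At the other end, PSMC2 changed by 0.06 at 10% CO2 and 0.01 at 5% CO2, past the threshold at neither.

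PSMD4, a receptor of the cap for ubiquitin chains, changed the most of the non-ATPase subunits. It had 277, 266 and 262 CPM at 10% CO2 with LPS, against 180.1, 198 and 194 CPM at 10% CO2, and 252, 218 and 266 CPM at 5% CO2 with LPS, against 185, 191 and 174 CPM at 5% CO2. The libraries with LPS were all higher, by 0.49 ± 0.08 on the log2 scale at 10% CO2 (adjusted p = 0.000112, edgeR) and 0.42 ± 0.08 at 5% CO2 (adjusted p = 0.000729). PSMD11, a scaffold subunit of the lid, had 111, 113 and 108 CPM at 10% CO2 with LPS, against 79.3, 82.4 and 88.5 CPM at 10% CO2, and 107, 96.3 and 116 CPM at 5% CO2 with LPS, against 89.1, 81.1 and 89.4 CPM at 5% CO2. PSMD11 was separated in both, with a change of 0.41 ± 0.09 at 10% CO2 (adjusted p = 0.00103) and 0.30 ± 0.09 at 5% CO2 (adjusted p = 0.0141), where it did not pass without 5% CO2 replicate 2 (0.0718) or replicate 3 of 5% CO2 with LPS (0.0942). PSMD14, the deubiquitinase of the lid, changed by 0.27 ± 0.09 at 10% CO2 (adjusted p = 0.0185) and by 0.21 ± 0.09 at 5% CO2 (adjusted p = 0.0771). With the GC correction the change of PSMD14 at 10% CO2 was 0.03 (adjusted p = 0.769), and it did not pass without 10% CO2 replicate 3 (0.0900) or without replicate 1 (0.0563) or 2 (0.0530) of 10% CO2 with LPS. PSMD1, PSMD3 and PSMD12 had changes between -0.04 and 0.13 and passed at neither CO2 level.

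Of the activators outside the interferon-inducible pair, PSME3, the nuclear cap, had 238, 237 and 222 CPM at 10% CO2 with LPS, against 177, 175 and 160.2 CPM at 10% CO2, and 210.4, 207 and 222 CPM at 5% CO2 with LPS, against 163, 165 and 153 CPM at 5% CO2. Its libraries with LPS lay well above the rest. The change was 0.44 ± 0.07 at 10% CO2 (adjusted p = 0.000115, edgeR) and 0.41 ± 0.07 at 5% CO2 (adjusted p = 0.000398). PSME4, a nuclear activator known from spermatogenesis, changed by 0.37 ± 0.11 at 10% CO2 (adjusted p = 0.0115, or 0.0664 without 10% CO2 replicate 3) and by 0.20 at 5% CO2, where it did not pass. PSMF1, an inhibitor of the 20S barrel in vitro, had a change of -0.00 at 10% CO2 and 0.05 at 5% CO2. None of the 7 assembly chaperones among the members passed in the upward direction at either CO2 level.

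Of the 3 assembly chaperones of the 19S cap, 1 fell at each CO2 level (PSMD5). Of the 4 of the 20S barrel, 1 fell at 10% CO2 (PSMG4) and none at 5% CO2. Among all genes tested, 13.1% fell at 5% CO2 and 18.6% at 10% CO2. POMP, a 20S maturation factor not named PSM, rose at both levels and is given below. PSMD5, which helps to assemble the 19S base, had 12.4, 13.2 and 12.6 CPM at 10% CO2 with LPS, against 17.5, 16.8 and 16.6 CPM at 10% CO2, and 11.6, 15.0 and 12.3 CPM at 5% CO2 with LPS, against 16.4, 16.3 and 19.2 CPM at 5% CO2. Every library with LPS lay below every library without it, and the change was -0.42 ± 0.12 at 10% CO2 (adjusted p = 0.0101, edgeR) and -0.41 ± 0.12 at 5% CO2 (adjusted p = 0.0144). At 5% CO2 it did not pass without 5% CO2 replicate 3 (adjusted p = 0.0810), or without replicate 1 (0.0768) or 3 (0.0608) of 5% CO2 with LPS. PSMG4, a chaperone of the alpha ring, had 4.26, 6.16 and 5.11 CPM at 10% CO2 with LPS, against 5.83, 7.71 and 9.80 CPM at 10% CO2, and 3.69, 4.13 and 4.43 CPM at 5% CO2 with LPS, against 5.02, 6.56 and 5.80 CPM at 5% CO2. Its groups overlapped at 10% CO2, where the change of -0.59 ± 0.19 passed (adjusted p = 0.0222), and not at 5% CO2, where that of -0.50 ± 0.20 did not (adjusted p = 0.0767). At 10% CO2 PSMG4 did not pass without 10% CO2 replicate 3 (adjusted p = 0.156), or without replicate 1 (0.106) or 3 (0.0636) of 10% CO2 with LPS. PSMG4 was the lowest tested member, and 15.0% of its exon bases are covered by genes on the opposite strand.

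The immunoproteasome genes were then set beside the rest. None of the 5 passed the threshold with LPS at either CO2 level in the main edgeR fit, while 20 of the 43 other tested members rose at each. That fit did not use the replicate numbers. In it, LPS raised 11.8% of all genes tested at 5% CO2 and 16.6% at 10% CO2. For a set of only 5 genes, the lack of a call is near those shares. With the replicate number as a block, PSME1 passed at 10% CO2 (adjusted p = 0.0426). At an unadjusted p under 0.05 there was 1 of the 5 (PSME1) at each CO2 level, and DESeq2 called PSME1 at 10% CO2 (adjusted p = 0.0307). Their median log2 change was 0.01 at 10% CO2 and 0.11 at 5% CO2, beside 0.21 for the other members at both. The 2 sets were not tested against each other, and the 3 constitutive catalytic subunits had no call either. The summed level of the 5 was 404, 436 and 437 CPM at 10% CO2 with LPS, against 377, 437 and 451 CPM at 10% CO2, and 396, 419 and 445 CPM at 5% CO2 with LPS, against 398, 431 and 377 CPM at 5% CO2. These groups overlapped.

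PSMB8 is encoded on chromosome 6 in the MHC class II region (32840717 to 32844703, GRCh38), next to PSMB9 on the opposite strand (32844136 to 32859585). PSMB8 had 108, 114 and 119 CPM at 10% CO2 with LPS, against 116, 136 and 132 CPM at 10% CO2, and 97.2, 106 and 113 CPM at 5% CO2 with LPS, against 109, 128 and 107 CPM at 5% CO2. The groups overlapped at both levels. Its log2 change was -0.17 (95% interval -0.36 to 0.02) at 10% CO2 (edgeR adjusted p = 0.168) and -0.12 (-0.31 to 0.08) at 5% CO2 (adjusted p = 0.402). PSMB9 had 22.5, 25.1 and 24.6 CPM at 10% CO2 with LPS, against 21.2, 25.2 and 25.5 CPM at 10% CO2, and 23.8, 24.3 and 24.7 CPM at 5% CO2 with LPS, against 22.2, 20.9 and 20.1 CPM at 5% CO2. The libraries of PSMB9 were separated at 5% CO2 alone, and its intervals were -0.21 to 0.22 at 10% CO2 (adjusted p = 0.971) and -0.01 to 0.42 at 5% CO2 (adjusted p = 0.164). The gene PSMB8-AS1 shares 21.2% of the exon bases of PSMB8, on the opposite strand, and 5.66% of those of PSMB9, on the same strand.

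PSMB10 (chromosome 16, 67934502 to 67937087) had 68.1, 76.7 and 77.5 CPM at 10% CO2 with LPS, against 67.5, 79.9 and 90.3 CPM at 10% CO2, and 77.6, 80.2 and 85.0 CPM at 5% CO2 with LPS, against 75.8, 85.2 and 70.1 CPM at 5% CO2. Its groups overlapped, with intervals of -0.32 to 0.12 at 10% CO2 and -0.15 to 0.29 at 5% CO2. Another gene on the same strand shares 34.8% of its exon bases. PSME1 and PSME2, both subunits of the interferon-inducible cap, lie close together on chromosome 14 (24136158 to 24138967 and 24143362 to 24147570). PSME1 had 108, 111 and 109.8 CPM at 10% CO2 with LPS, against 85.5, 99.1 and 101 CPM at 10% CO2, and 106, 112 and 115 CPM at 5% CO2 with LPS, against 98.8, 101 and 94.4 CPM at 5% CO2. All its libraries with LPS were above those without, yet its change of 0.20 ± 0.08 at 10% CO2 had an edgeR adjusted p of 0.0630 and that of 0.18 ± 0.08 at 5% CO2 one of 0.125. Without 10% CO2 replicate 3, PSME1 passed at 10% CO2 (change 0.24, adjusted p = 0.0378), as it did there in all libraries with the replicate number as a block (0.0426) and with RLE size factors (0.0391). With the GC correction it passed at 10% CO2 (change 0.30, adjusted p = 0.00151) and at 5% CO2 (change 0.21, adjusted p = 0.0219).

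PSME2 had 96.8, 109.8 and 106 CPM at 10% CO2 with LPS, against 86.6, 96.5 and 102 CPM at 10% CO2, and 91.2, 96.7 and 107 CPM at 5% CO2 with LPS, against 91.6, 96.1 and 86.1 CPM at 5% CO2. These overlapped at both levels, and the intervals were -0.05 to 0.32 at 10% CO2 and -0.08 to 0.29 at 5% CO2. TAP1, the peptide transporter that shares its region with PSMB8 and PSMB9, rose with LPS by 0.58 ± 0.12 at 10% CO2 (edgeR adjusted p = 0.000913) and by 0.43 ± 0.12 at 5% CO2 (adjusted p = 0.0145). At 5% CO2 TAP1 did not pass without 5% CO2 replicate 1 (0.0758) or replicate 3 of 5% CO2 with LPS (0.0962).

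**Figure D2:**
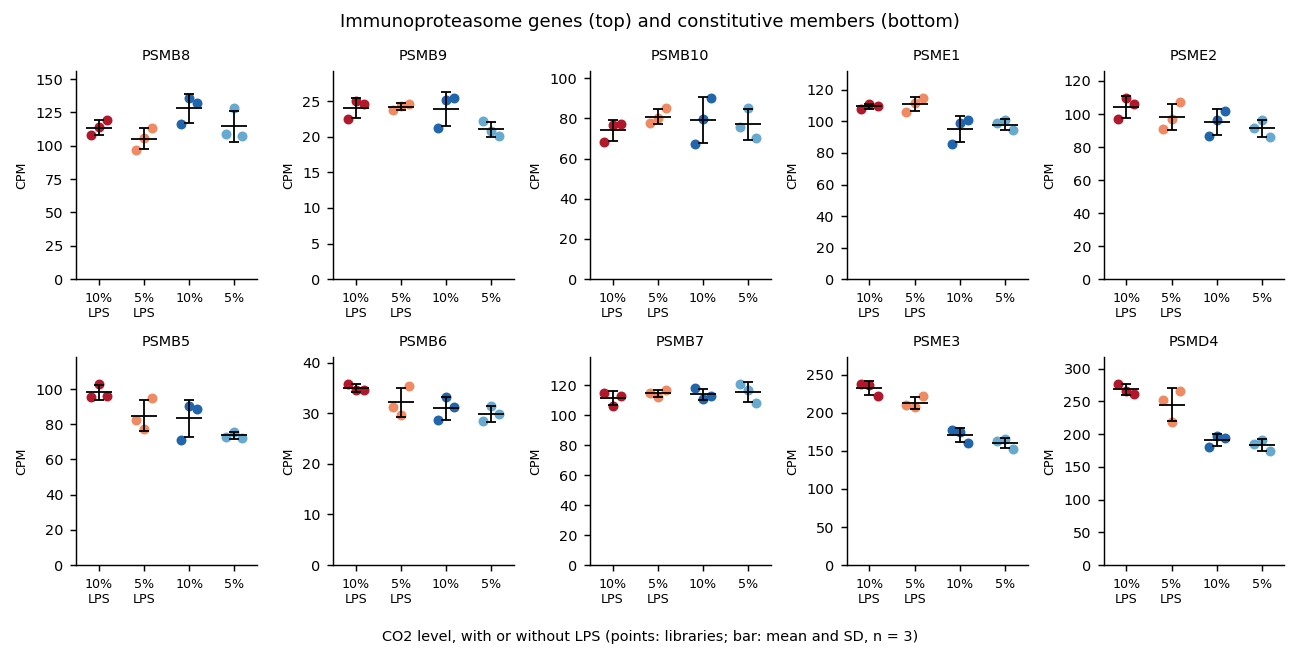
TMM-scaled CPM (vertical axes, from 0) in each of the 12 libraries for the 5 immunoproteasome genes (top) and for PSMB5, PSMB6, PSMB7, PSME3 and PSMD4 (bottom), with the mean and SD of 3 libraries per group. PSME3 and PSMD4 are higher in every library with LPS than in any without, while the groups of PSMB8, PSMB10, PSME2 and PSMB7 overlap.

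The balance of exchangeable catalytic subunits was described as the ratio of their levels per kilobase in each library, with no test. The absolute size of a ratio depends on the exon lengths used, while its comparison between groups does not. PSME1 and PSME2 were set in the same way against PSME3, a different activator, which itself rose with LPS. A lower ratio to PSME3 does not show a fall of PSME1 or PSME2. The ratio of PSMB8 to PSMB5 was 1.000, 0.969 and 1.09 at 10% CO2 with LPS, against 1.43, 1.32 and 1.31 at 10% CO2, and 1.04, 1.20 and 1.05 at 5% CO2 with LPS, against 1.32, 1.48 and 1.30 at 5% CO2. All 6 ratios with LPS lay below all 6 without. The ratio of PSMB9 to PSMB6 averaged 0.325 ± 0.0251 at 10% CO2 with LPS, against 0.365 ± 0.0187 at 10% CO2, and 0.358 ± 0.0281 at 5% CO2 with LPS, against 0.333 ± 0.0312 at 5% CO2 (SD, n = 3). The ratio of PSMB10 to PSMB7 averaged 0.643 ± 0.0636 at 10% CO2 with LPS, against 0.673 ± 0.112 at 10% CO2, and 0.681 ± 0.0266 at 5% CO2 with LPS, against 0.645 ± 0.0516 at 5% CO2 (SD, n = 3). Only the first of the 3 catalytic pairs was separated at both CO2 levels. The ratio of PSME1 to PSME3 averaged 1.36 ± 0.0609 at 10% CO2 with LPS, against 1.62 ± 0.215 at 10% CO2, and 1.51 ± 0.0545 at 5% CO2 with LPS, against 1.77 ± 0.0175 at 5% CO2 (SD, n = 3). It was separated at 5% CO2 and overlapped at 10% CO2. The ratio of PSME2 to PSME3 averaged 0.645 ± 0.0536 at 10% CO2 with LPS, against 0.803 ± 0.105 at 10% CO2, and 0.663 ± 0.0361 at 5% CO2 with LPS, against 0.818 ± 0.0152 at 5% CO2 (SD, n = 3), and was separated at both.

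**Figure D3:**
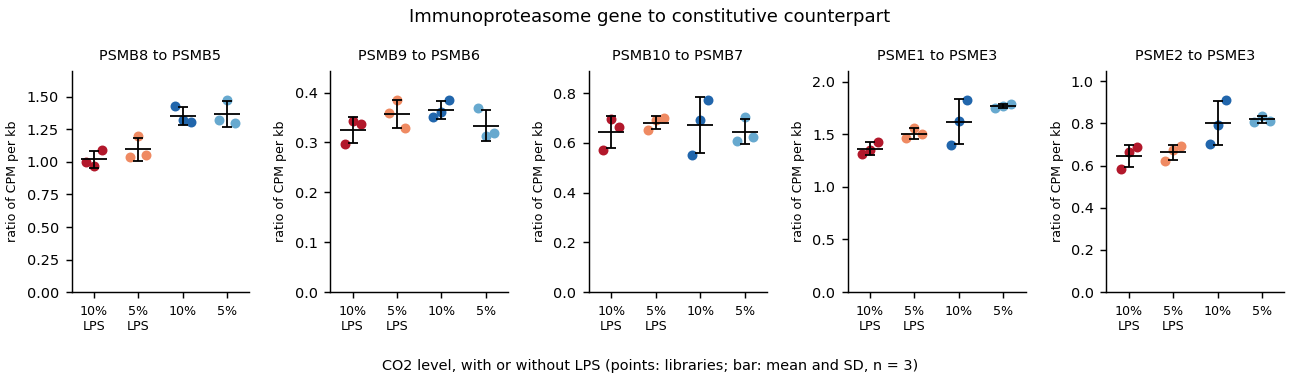
Ratio of TMM-scaled CPM per kilobase (vertical axes, from 0) in each of the 12 libraries, with the mean and SD of 3 libraries per group. PSMB8, PSMB9 and PSMB10 are set against their constitutive counterparts, and PSME1 and PSME2 against PSME3, a different activator. The ratio of PSMB8 to PSMB5 is 0.969 to 1.20 in the libraries with LPS and 1.30 to 1.48 in those without.

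The second question was what 10% CO2 does to these transcripts. Without LPS no member passed the threshold by edgeR, where 0.799% of all genes were higher and 0.665% lower at 10% CO2. At an unadjusted p under 0.05 there were 4 members, and DESeq2 called 1, PSMG1. With LPS 1 member rose, PSMA6, where 4.29% of all genes were higher and 4.46% lower. Averaged over the LPS levels, 4 of the 48 tested members rose (PSMG1, PSMA2, PSMA6 and PSMA7) and none fell, where 8.06% of all genes were higher and 8.69% lower, so the share of members that rose was close to that of all genes. The median log2 change of the members was 0.05 without LPS, 0.06 with LPS and 0.06 averaged, beside -0.01 for all genes in each.

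PSMG1, the partner of PSMG2 in the first chaperone of the alpha ring, had 37.6, 39.1 and 34.9 CPM at 10% CO2 with LPS, against 28.4, 32.9 and 31.0 CPM at 5% CO2 with LPS, and 35.7, 41.5 and 34.5 CPM at 10% CO2, against 28.8, 29.5 and 27.3 CPM at 5% CO2. Every library at 10% CO2 lay above every library at 5% CO2. Its log2 change averaged over LPS was 0.33 ± 0.07 (edgeR adjusted p = 0.00461), called in each of the 12 fits that left out 1 library. It was 0.27 ± 0.10 with LPS (adjusted p = 0.0912, or 0.0484 with the replicate number as a block) and 0.38 ± 0.10 without LPS (adjusted p = 0.0612). Without LPS, PSMG1 passed without 10% CO2 replicate 1 (0.0437) or replicate 3 (0.0440). In all libraries it passed there by DESeq2 (0.0109), without a low-count filter (0.0408), with the replicate block (0.0255) and with the GC correction (0.0203). PSMG4, of the same group of chaperones, had a change of 0.43 ± 0.19 without LPS (adjusted p = 0.242). Averaged over LPS, PSMG4 passed only under alternatives, among them the replicate block (0.0246) and the GC correction (0.0373). PSMG3, also of that group, had changes of 0.24 ± 0.11 with LPS (adjusted p = 0.172) and 0.17 ± 0.11 without (0.430). With the GC correction PSMG3 passed with LPS (0.00963) and averaged (0.00252). PSMG2, the partner of PSMG1, had changes of -0.13 with LPS and -0.01 without, and passed in neither.

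PSMA2 had 18.4, 18.7 and 20.1 CPM at 10% CO2 with LPS, against 13.9, 15.6 and 15.9 CPM at 5% CO2 with LPS, and 16.4, 15.4 and 11.9 CPM at 10% CO2, against 11.3, 11.0 and 12.6 CPM at 5% CO2. It was separated with LPS and overlapped without. Averaged, the change was 0.33 ± 0.09 (edgeR adjusted p = 0.0179), and it did not pass without 10% CO2 replicate 2 (0.0532) or without replicate 1 of 5% CO2 with LPS (0.0515). Other genes cover 34.6% of the exon bases of PSMA2. PSMA6, whose values stand above with the LPS comparison, was higher in every library at 10% CO2 with LPS than at 5% CO2 with LPS, with a change of 0.29 ± 0.08 (adjusted p = 0.0343). That call was lost without replicate 1 (adjusted p = 0.102), 2 (0.112) or 3 (0.0565) of 5% CO2 with LPS, without replicate 1 (0.0780) or 2 (0.151) of 10% CO2 with LPS, without a low-count filter (0.142) and with the GC correction (0.134, change 0.17). Averaged, PSMA6 changed by 0.21 ± 0.06 (adjusted p = 0.0212), and did not pass without 5% CO2 replicate 1 (0.0571), 10% CO2 replicate 2 (0.0648) or replicate 2 of 10% CO2 with LPS (0.0519), without a low-count filter (0.0672) or with the GC correction (0.0627).

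PSMC6, a 19S ATPase, had 97.4, 99.8 and 93.7 CPM at 10% CO2 with LPS, against 76.6, 73.8 and 92.5 CPM at 5% CO2 with LPS. These were separated, and the change of 0.26 ± 0.09 had an edgeR adjusted p of 0.0897, which was 0.0208 without replicate 3 of 5% CO2 with LPS.

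PSMA7 had 260.5, 264 and 237 CPM at 10% CO2 with LPS, against 214, 210.1 and 238 CPM at 5% CO2 with LPS, and 194, 226 and 247 CPM at 10% CO2, against 197, 203 and 186 CPM at 5% CO2. Its groups overlapped at both LPS levels. The averaged change of 0.19 ± 0.06 (adjusted p = 0.0446, edgeR) passed in 3 of the 12 fits that left out 1 library, with an adjusted p of up to 0.102 in the rest. The count of 4 averaged calls was 7 without 10% CO2 replicate 1 and 1 without its replicate 2. It was 2 without 5% CO2 replicate 1, without replicate 1 of 5% CO2 with LPS or without replicate 2 of 10% CO2 with LPS. The mitochondrial share, given above, was higher in each library at 10% than at 5% CO2 at either LPS level, and its part in these differences was not tested.

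**Figure D4:**
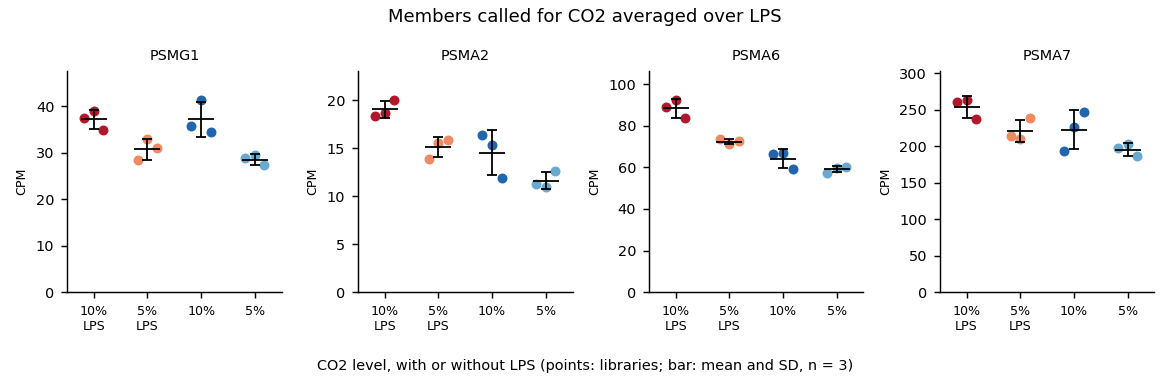
TMM-scaled CPM (vertical axes, from 0) of PSMG1, PSMA2, PSMA6 and PSMA7 in each of the 12 libraries, with the mean and SD of 3 libraries per group. PSMG1 is higher in each library at 10% CO2 than in those at 5% CO2 at the same LPS level, and the groups of PSMA7 overlap.

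The immunoproteasome genes had no call for CO2 in any of the 3 comparisons of CO2 levels by edgeR. Their log2 changes were -0.04 to 0.18 without LPS and -0.13 to 0.11 with LPS. Averaged over LPS, 1 of the 5 had an unadjusted p under 0.05, PSMB8, with a change of 0.14 (95% interval 0.00 to 0.27, adjusted p = 0.157). With the GC correction PSMB8 passed (adjusted p = 0.0298). PSMB5 had an averaged change of 0.20 ± 0.07 (adjusted p = 0.0618) and did not pass. It passed by DESeq2 (0.0432), with the GC correction (0.0146), without 10% CO2 replicate 1 (0.0112) and without replicate 3 of 5% CO2 with LPS (0.0254).

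The third question was whether the LPS response differs between CO2 levels. No member passed the test of the interaction by edgeR, where 4 of 16402 genes, 0.0244%, did. No member had an unadjusted p under 0.05 either. DESeq2 called 0 members as well. The smallest p was that of PSMA6, whose LPS effect was larger at 10% than at 5% CO2 by 0.17 (95% interval -0.08 to 0.41, adjusted p = 0.912). PSMB9 had a difference of -0.20 (-0.50 to 0.10, adjusted p = 0.926) and PSMD12 one of 0.14 (-0.11 to 0.39, adjusted p = 0.951). Over the 48 members the differences ran from -0.20 to 0.17, with a median of 0.01.

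Genes around the proteasome were described from lists, by edgeR calls out of those tested. Over all genes LPS raised 16.6% and lowered 18.6% at 10% CO2, and raised 11.8% and lowered 13.1% at 5% CO2. Regulators of the immunoproteasome genes responded to LPS in most cases. Of 21 interferon and NF-κB regulators, 13 rose and 5 fell at 10% CO2, and 9 rose and 2 fell at 5% CO2. The NF-κB subunit genes NFKB1, NFKB2 and RELB rose by 3.71, 4.62 and 4.05 on the log2 scale at 10% CO2 and by 3.20, 4.26 and 3.38 at 5% CO2. IRF1, an activator of immunoproteasome promoters, rose by 0.65 ± 0.12 at 10% CO2 (adjusted p = 0.000380) and by 0.44 ± 0.12 at 5% CO2 (adjusted p = 0.0109), where it did not pass without 5% CO2 replicate 3 (0.0732) or replicate 1 of 5% CO2 with LPS (0.0533). NLRC5, the MHC class I transactivator, fell by 0.44 at 10% CO2 (SE 0.10, adjusted p = 0.00231), and had a change of -0.13 at 5% CO2 that did not pass. The inflammatory cytokine genes rose by far more, TNF by 6.05 at 10% CO2 and 5.23 at 5% CO2, and IL1B by 7.85 at 10% CO2 and 7.62 at 5% CO2.

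Of 19 genes of MHC class I antigen processing, 8 rose and 1 fell with LPS at 10% CO2, and 6 rose and none fell at 5% CO2. The class I chain gene HLA-B rose by 0.64 at 10% CO2 and 0.65 at 5% CO2, and B2M, its light chain, by 0.48 and 0.44 at those levels. ERAP2, a peptide-trimming enzyme, fell by 1.68 at 10% CO2 (edgeR adjusted p = 2.72e-05). Its level was low, with a mean of 0.858 CPM at 10% CO2 with LPS, against 2.77 CPM at 10% CO2. Of 23 tested partners not named PSM, 6 rose and 3 fell at 10% CO2, and 5 rose and 2 fell at 5% CO2. POMP, the maturation factor of the 20S barrel, rose by 0.35 ± 0.09 at 10% CO2 (adjusted p = 0.00395) and by 0.31 ± 0.09 at 5% CO2 (adjusted p = 0.0147), with 98.3 ± 7.84 CPM at 10% CO2 with LPS, against 77.0 ± 6.17 CPM at 10% CO2, and 88.9 ± 4.64 CPM at 5% CO2 with LPS, against 71.9 ± 2.88 CPM at 5% CO2 (SD, n = 3). With the GC correction POMP changed by 0.05 at 10% CO2 (adjusted p = 0.676) and by 0.15 at 5% CO2 (adjusted p = 0.182), and at 5% CO2 it did not pass without 5% CO2 replicate 1 (0.0609) or replicate 3 of 5% CO2 with LPS (0.0750). SEM1, the small subunit of the lid, had a change of 0.19 at both levels and passed at neither. ZFAND5, a proteasome-binding protein that speeds degradation, rose by 0.51 at 10% CO2 and 0.53 at 5% CO2.

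The pathway of NFE2L1, a factor that restores proteasome genes when the particle is inhibited, showed calls in both directions: 6 of 16 rose and 4 fell at 10% CO2, and 3 rose and 3 fell at 5% CO2. NFE2L1 itself had changes of 0.09 at 10% CO2 and -0.12 at 5% CO2 and passed at neither. DDI2, the protease that activates it, fell by 0.74 at 10% CO2 (adjusted p = 0.000229) and by 0.80 at 5% CO2 (adjusted p = 0.000184). NFE2L2, the related oxidative stress factor, rose by 2.59 at 10% CO2 and 2.52 at 5% CO2. Of 15 ubiquitin genes and conjugating enzymes, 8 rose at 10% CO2 and 7 at 5% CO2, and none fell, with UBE2D3 rising by 0.58 at 10% CO2 and 0.43 at 5% CO2. Of 18 proteotoxic stress genes, 14 rose and 1 fell at 10% CO2, and 6 rose and none fell at 5% CO2.

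Over all genes, 0.799% were higher and 0.665% lower at 10% CO2 without LPS, 4.29% and 4.46% with LPS, and 8.06% and 8.69% averaged. For CO2 without LPS, RELB was among the regulators that fell, by 0.61 (adjusted p = 0.0244), and no gene of the other 5 lists was called. Without 10% CO2 replicate 2 the adjusted p of RELB was 0.177. With LPS, 7 of the 18 proteotoxic stress genes rose at 10% against 5% CO2 and none fell, among them HSPD1, the mitochondrial chaperonin, by 0.69 ± 0.12 (adjusted p = 0.00347) and its partner HSPE1 by 0.58 ± 0.12 (adjusted p = 0.00766). In that comparison NFKB1 and UBE2D1 rose, by 0.41 and 0.48, FBXO7, SYVN1 and NPLOC4 fell, by 0.26, 0.36 and 0.28, and no class I gene was called. Without replicate 2 of 10% CO2 with LPS none of HSPE1 (adjusted p = 0.0602), NFKB1 (0.106), UBE2D1 (0.111), FBXO7 (0.211), SYVN1 (0.170) and NPLOC4 (0.213) passed. Averaged over LPS 7 stress genes rose and none fell. Among the regulators 4 fell and none rose on average, among them IRF1 by 0.38 (adjusted p = 0.00630) and RELA by 0.27 (adjusted p = 0.00995). TAP1 rose by 0.27 ± 0.09 on average (adjusted p = 0.0400), and by 0.23 without 10% CO2 replicate 2 (adjusted p = 0.119). That call was kept in 4 of the 12 fits that left out 1 library. Of the 19 class I genes 3 rose and 2 fell. CALR had the smallest p and fell (-0.23, adjusted p = 0.00699), called in each of the 12 fits. TAPBP fell (-0.28, adjusted p = 0.0338) and TPP2 rose (0.21, adjusted p = 0.0332), each called in 5. In the NFE2L1 pathway 5 fell and 1 rose on average, among them SYVN1, a ubiquitin ligase of the endoplasmic reticulum, which fell by 0.35 (adjusted p = 0.00324). The partners had 2 rises and 1 fall on average, a share of rises (8.70%) close to that of all genes, and the ubiquitin list 2 rises and none that fell. No gene of any of the 6 lists passed the test of the interaction.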

How the data were processed

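The authors deposited a table of featureCounts layout for each library, which holds unnormalized counts of reads for Ensembl gene identifiers. Trimmomatic 0.36, STAR 2.5.2b and featureCounts of Subread 1.5.2, on GRCh38, are named in the submitters' processing notes. No source used here gives the strand setting, the handling of multi-mapping reads or the annotation release. Reads of overlapping, antisense or near-identical genes could therefore not be assigned with certainty. The pseudogenes with proteasome symbols held 0.0916% as many counts as the members. Symbols from a reference table matched 40907 of 57500 genes (71.1%), which held 99.1% of counts.

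Sample titles gave the groups and replicate numbers, and every count column belonged to a sample. Within groups, library pairs differed beyond sampling noise (8.91 to 29.2 in chi-square per degree of freedom), so all 12 libraries were kept. Deviations from group means of same-numbered libraries correlated at 0.44, 0.42 and 0.21 between 10% CO2 with LPS and 10% CO2, so the numbers were taken to pair the libraries there. The main test did not use this pairing, so its p-values at 10% CO2 ignore it. The replicate block, listed below as an alternative, takes it into account. In each of the other 3 pairs of groups compared, at least 1 of the 3 correlations was 0.1 or lower. No label says what a number marks. The main test was the robust quasi-likelihood F test of edgeR 4.0.16 (R 4.3.3). It followed the filter filterByExpr by group (16402 genes kept) and TMM scaling, and used 4 group means over 12 libraries. Benjamini-Hochberg adjustment ran over all 16402 genes, with a threshold of 0.05. The common biological coefficient of variation was 10.7%. A zero count allows up to 3 counts, 0.135 to 0.175 CPM in a library, for counting error only. The scripts were tested on simulated data.

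The members and the gene lists were chosen with earlier results of these data known. Members named with values in each library are the immunoproteasome genes, PSMB5, PSMB6, PSMB7, PSME3 and those with the smallest p in each comparison (3, or up to 8 where more were called). List genes are named where called, by the 3 smallest p, beside TAP1, POMP, SEM1, NFE2L1, IRF1, NLRC5, TNF and IL1B, except that 1 regulator is not reported here. Alternatives were DESeq2 1.42.0, RLE size factors, no low-count filter, only the compared groups, a replicate block, a GC correction, both together, and leaving out each library. Exon overlap was counted on the GENCODE annotation, and promoter windows were RefSeq sequences of GRCh38.p14.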

Additional observations from a re-analysis of the deposited data

How the results depend on the processing

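For CO2 without LPS, 0 members became 1 under DESeq2, no low-count filter, the replicate block, the GC correction and both corrections together, and 240 genes became 701 (DESeq2), 572 (no filter), 71 (only the compared groups), 699 (replicate block), 887 (GC correction) and 2030 (both). For CO2 with LPS, 1 member became 0 with no filter, 2 with the block and 5 with block and GC correction, where 1435 genes became 3030. For CO2 averaged over LPS, 4 members became 7 (DESeq2), 8 (block), 8 (GC correction) and 11 (both), and 2748 genes became 4690 (both). For LPS at 10% CO2, 22 members became 14 with no filter. The interaction, with 4 genes, gave 53 (DESeq2), 1 (RLE size factors), 108 (no filter), 11 (block) and 31 (block and GC correction), and 0 members under each of these. The other counts stayed within 1.5 times, but the members behind them changed. With no filter, LPS at 5% CO2 lost the calls of PSMA2, PSMA5, PSMB2, PSMB3, PSMC5, PSMD2 and PSMD13 and gained none. With the GC correction, LPS at 10% CO2 lost those of PSMA3, PSMB1, PSMB2, PSMC6, PSMD6, PSMD7 and PSMD14. It gained those of PSMB5, PSMD8, PSME1 and PSME3IP1. The cause was not tested.

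With 1 library left out, called members numbered 0 to 1 (CO2 without LPS), 0 to 1 (CO2 with LPS), 1 to 7 (averaged), 8 to 23 (LPS at 5% CO2) and 17 to 23 (LPS at 10% CO2). Genes numbered 0 to 511, 271 to 1804, 1664 to 3005, 3116 to 4371 and 4652 to 5923 in the same order, and 1 to 37 for the interaction. Of 3436 checks of single members and list genes under the alternatives, 0 changed direction where either value was called, 255 lost a call (194 of them with 1 library left out) and 61 gained one. PSMB10 with LPS at 5% CO2 was called with block and GC correction (adjusted p = 0.0490).

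Beyond LPS at 10% CO2, the libraries share only a replicate number: 12 of 18 same-numbered pairs over all groups had deviations correlated over 0.1 (-0.36 to 0.58), and 6 of 12 libraries correlated best with their own number. With the replicate block, LPS raised or lowered 23 members at 5% CO2 and 24 at 10% CO2, where PSME1 (adjusted p = 0.0426) and PSMB5 (0.0457) were gained. For CO2, the block gave calls of PSMG1 without LPS (0.0255) and with LPS (0.0484) and of PSMB5 averaged (0.0418), and of the list genes IRF1 without LPS (0.0345) and TAP1 with LPS (0.0124). It changed no other call of the single genes checked in each comparison, but members outside those checks gained calls. These were PSMD6 (0.0461) and PSMG4 (0.0276) for LPS at 5% CO2. For CO2 averaged over LPS they were PSMC6 (0.0470), PSMD10 (0.0473) and PSMG4 (0.0246). Fits with only the compared groups do not exist for the interaction and the average. PSMG4 had at least 71 counts in each library, and what limits its precision was not tested. Gene-level counts cannot separate overlapping genes or isoforms.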
